A study of Mus musculus with 6 samples.

Results

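Matrix metalloproteinases (MMPs), ADAMTS proteases, ADAMTS-like proteins and the tissue inhibitors of metalloproteinases (TIMPs) were followed in stromal cells sorted from the large intestine of mice. The members were all rows whose symbol was Mmp, Adamts, Adamtsl or Timp followed by a number, 51 of the 24346 genes listed. They comprised 23 MMPs, 19 ADAMTS proteases, 5 ADAMTS-like genes and 4 TIMPs. There were 6 libraries, 1 per mouse, all from mice aged 12 weeks given 1% DSS (dextran sulfate sodium), which injures the colonic epithelium and so causes colitis. The 3 control mice (numbers 8, 9 and 43) were Il10ra flox/flox without cre. The 3 Pdgfra-cre mice (13, 23 and 25) carried the same floxed alleles and cre under the fibroblast gene Pdgfra, which is meant to delete Il10ra, the gene of the interleukin-10 receptor's alpha chain, in cells that express Pdgfra. Whole colons were taken, and live Podoplanin-positive cells without CD45, CD31 and EpCAM were sorted. No group carried cre without floxed alleles, so an effect of cre itself cannot be told apart from the loss of Il10ra.

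MMPs are zinc-dependent endopeptidases that cleave collagens, proteoglycans and many cell surface and signalling proteins. Most are secreted as inactive precursors, held so by a propeptide, and the membrane-type members act at the cell surface. ADAMTS enzymes carry thrombospondin repeats and cut proteoglycans, procollagen propeptides or fibrillin-associated proteins, and the ADAMTS-like proteins share the repeats but lack a protease domain. TIMPs bind active MMPs, TIMP3 stays in the matrix and also inhibits several ADAMTS and ADAM enzymes, and TIMP2 takes part in the activation of MMP2 by MMP14. Transcript levels do not show secretion, activation or activity.

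Levels are in FPKM, that is, sequenced fragments scaled to transcript length and to library size, and can be compared between genes. Library depth and the way library size was estimated are not given in the sources used here. From the most frequent low values, sought within a range set in advance, 1 read per kilobase came to about 0.115 to 0.141 FPKM. Between 11188 and 11358 genes per library had an FPKM of at least 1. Il10ra was listed at 0 in 5 libraries and at 0.418 FPKM in control 43, so its loss could not be checked. Defining genes of excluded cells were low, with Ptprc (CD45) at 0 to 1.04 FPKM, Pecam1 (CD31) at 0.0741 to 0.856 and Epcam at 0 to 1.11. Pdpn, the gene of the sort marker Podoplanin, was at 78.3 to 124 FPKM. Averaged over its 5 pairings, the correlation of Pdgfra-cre 23 with the rest was 0.950, and that of the others was 0.960 to 0.970. In these bulk libraries, fewer cells of a type and less RNA per cell cannot be told apart.

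Several members shared a gene cluster whose start sites are shown first, because its genes ranged from very high to undetected in the same libraries. On chromosome 9, 10 MMP genes lay within 427 kb (7272514 to 7699585, mm10, GENCODE M21). The RefSeq table (GRCm38.p6, the same assembly as mm10) held start windows for 36 of the 51 genes, 39 windows in all, each reaching from 250 bases before a start to 50 after it. The letters TGAGTCA or their reverse complement TGACTCA, bound by the AP-1 factors of the Fos and Jun families, occurred in windows of 7 members, all in this cluster. They occurred in 5.20% of all 32851 windows in the table. The stretches below run from base -120 to base -1 before the RefSeq start, 5′ to 3′ on the gene's strand, with the AP-1 letters in capitals.
Mmp3: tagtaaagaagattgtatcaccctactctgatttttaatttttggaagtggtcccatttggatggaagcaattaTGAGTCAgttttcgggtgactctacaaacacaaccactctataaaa
Mmp10: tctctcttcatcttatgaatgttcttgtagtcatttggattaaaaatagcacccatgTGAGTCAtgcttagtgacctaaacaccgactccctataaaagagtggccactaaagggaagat
Mmp13: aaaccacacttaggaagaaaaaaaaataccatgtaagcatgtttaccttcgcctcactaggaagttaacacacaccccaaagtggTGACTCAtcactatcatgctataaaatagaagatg
Mmp1a: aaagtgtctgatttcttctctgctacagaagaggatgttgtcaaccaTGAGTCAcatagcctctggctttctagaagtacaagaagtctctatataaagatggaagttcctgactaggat
Mmp7: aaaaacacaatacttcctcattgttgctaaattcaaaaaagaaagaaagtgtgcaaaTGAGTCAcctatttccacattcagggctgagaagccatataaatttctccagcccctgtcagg
All 5 stretches are on the plus strand: chr9:7445702-7445821 for Mmp3, chr9:7502222-7502341 for Mmp10, chr9:7272394-7272513 for Mmp13, chr9:7464021-7464140 for Mmp1a and chr9:7691970-7692089 for Mmp7. The first AP-1 base lay at -46 in Mmp3, -63 in Mmp10, -35 in Mmp13, -73 in Mmp1a and -63 in Mmp7. The other matches were in Mmp1b, at -93, and in a second start of Mmp12, at -44. All 7 windows also held the letters TATAAA on the gene's strand, at other bases, which 8.32% of all windows held. Members of this cluster are close relatives, so their windows are not independent. A match is a description of letters, not of binding.

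The genes with these letters differed widely in level. Mmp3 was at 167 to 493 FPKM, Mmp10 at 18.2 to 75.3 and Mmp13 at 0.753 to 7.18. Mmp1a, Mmp1b and Mmp7 were listed at 0 in all 6 libraries, and Mmp12 did not exceed 0.557 FPKM. Expressed and silent genes were neighbors in the cluster, since Mmp3 and Mmp10 lie on either side of Mmp1a. Mmp1a is annotated as a polymorphic pseudogene in GENCODE M21. Because Mmp3 and Mmp10 are related in sequence, some reads may have been divided between them.

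**Figure D1:**
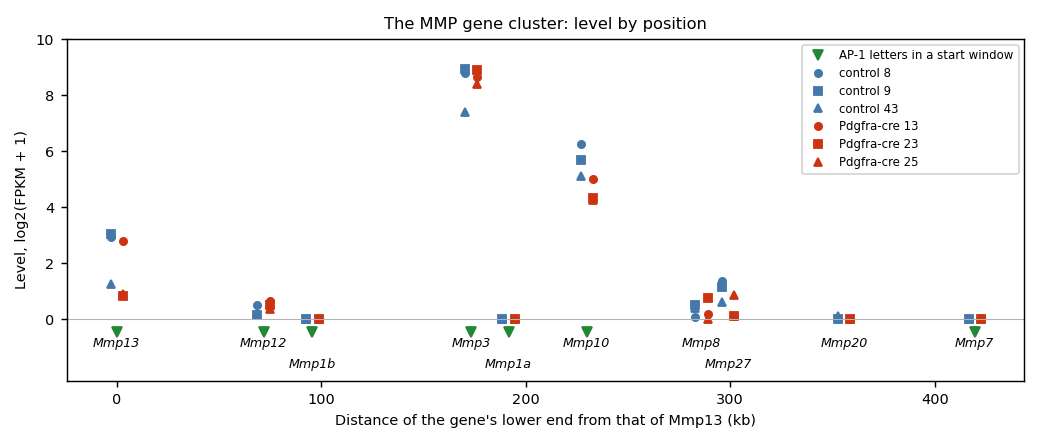
Level of the 10 MMP genes of the chromosome 9 cluster (y axis, log2(FPKM + 1)) against the distance of each gene's lower end from that of Mmp13 (x axis, kb). Points are libraries, blue for control and red for Pdgfra-cre, and green triangles mark genes with AP-1 letters in a start window. Mmp3 and Mmp10 stand high beside Mmp1a, which is listed at 0 in every library.

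Of the 51 members, 33 reached 1 FPKM in 3 or more libraries and were tested, and 18 did not. The tested ones were 10 MMPs, 15 ADAMTS, all 5 ADAMTS-like genes and 3 TIMPs. None met this filter through the libraries of 1 group alone. Those below the filter were mostly MMPs (13 of 23), and 4 members (Mmp1a, Mmp1b, Mmp7 and Adamts18) were listed at 0 throughout. Together the members made up 0.576% to 0.753% of the summed FPKM of all genes, lowest in Pdgfra-cre 23.

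**Figure D2:**
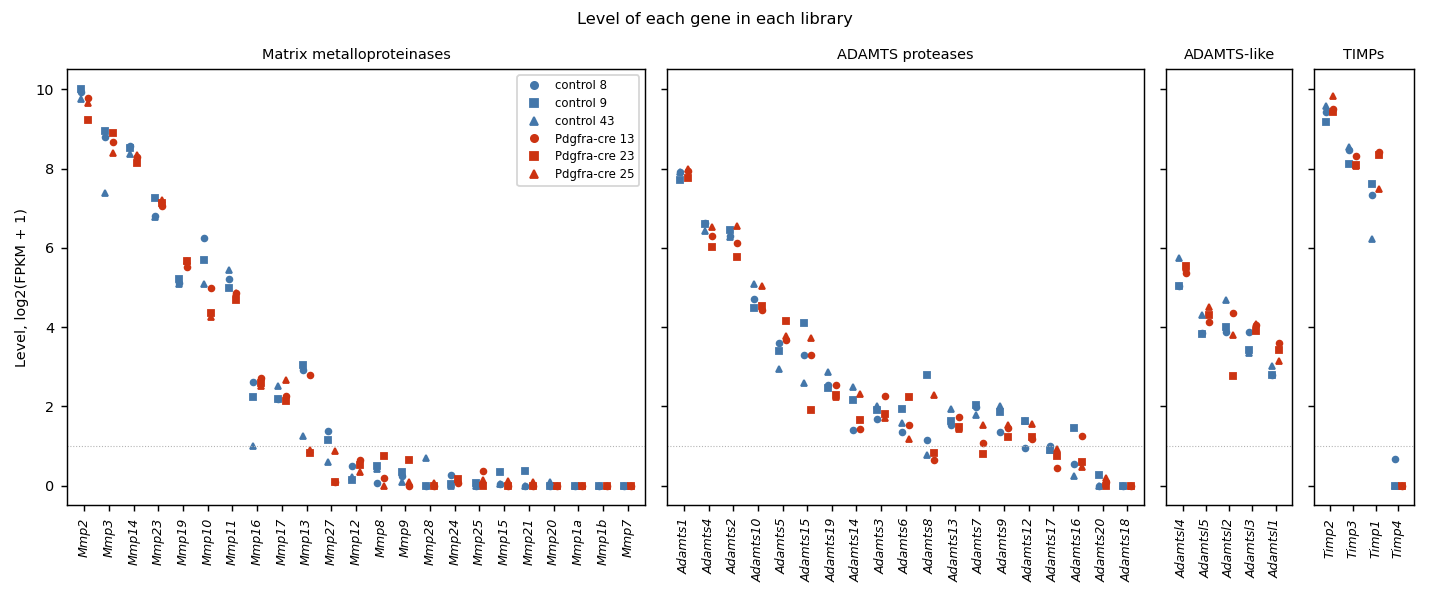
Level of each of the 51 genes in each library (y axis, log2(FPKM + 1)), grouped by family and ordered by mean. Points are libraries, blue for control and red for Pdgfra-cre, and the dotted line marks an FPKM of 1. A few genes per family (Mmp2, Mmp3 and Mmp14, then Adamts1, then Timp2) stand far above the rest.

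MMP transcripts came mainly from 3 genes. Mmp2, Mmp3 and Mmp14 made up 84.8% to 86.9% of the summed MMP FPKM in every library. Gelatinase Mmp2 (chromosome 8, 92827291 to 92853420), which degrades basement membrane and denatured collagen, had the highest mean of all members over the 6 libraries. Timp2 exceeded it in Pdgfra-cre 23 (683 FPKM) and 25 (909 FPKM). The FPKM of Mmp2 was 981, 1026 and 861 in controls 8, 9 and 43, and 877, 601 and 811 in Pdgfra-cre 13, 23 and 25. Only control 43 lay within the Pdgfra-cre range, and Pdgfra-cre 23 was the lowest. The log2 fold change, Pdgfra-cre over control on the log2(FPKM + 1) scale, was -0.34 ± 0.15 (SE, limma adjusted p = 0.469), and -0.18 without Pdgfra-cre 23.

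Membrane-type Mmp14 (chromosome 14, 54431612 to 54445364), a collagenase at the cell surface and activator of MMP2, was at 379, 364 and 331 FPKM in controls and at 313, 279 and 325 in Pdgfra-cre. Every Pdgfra-cre value lay below every control, by a margin of 331 against 325 at the closest. Its log2 fold change was -0.23 ± 0.11 (SE, limma adjusted p = 0.502). The other tested membrane-type genes, Mmp16 (1.02 to 5.61 FPKM) and Mmp17 (3.37 to 5.31 FPKM), overlapped between the groups.

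The 3 stromelysins did not share 1 direction. Mmp3 (stromelysin 1, chromosome 9, 7445822 to 7455975), which cleaves proteoglycans and activates other MMPs, was at 442, 493 and 167 FPKM in controls and 406, 480 and 337 in Pdgfra-cre. Control 43 stood far below the other 5, whose values interleaved between genotypes. The log2 fold change of 0.28 ± 0.35 (SE, limma adjusted p = 0.844) turned to -0.21 without control 43.

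Mmp10 (stromelysin 2, chromosome 9, 7502352 to 7510240), an enzyme of wound margins with a substrate range like that of MMP3, was at 75.3, 51.0 and 33.3 FPKM in controls and 30.9, 19.3 and 18.2 in Pdgfra-cre. All 3 Pdgfra-cre values lay below all controls, and the groups spread widely, so control 43 and Pdgfra-cre 13 nearly met. The means were 53.2 ± 21.1 and 22.8 ± 7.01 FPKM (SD, n = 3 each), a log2 fold change of -1.15 ± 0.29 (SE, limma unadjusted p = 0.00314, adjusted p = 0.199). This was the most negative value among the 33 tested members. The ratio of Mmp3 to Mmp10, a description of the libraries, was 5.88, 9.66 and 5.02 in controls and 13.2, 24.8 and 18.5 in Pdgfra-cre. This ratio was thus higher in each Pdgfra-cre library than in any control, which does not hold for the difference in FPKM.

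Mmp11 (stromelysin 3, chromosome 10, 75923222 to 75936496), a fibroblast enzyme activated inside the cell by furin, was at 36.1, 30.8 and 42.7 FPKM in controls and 27.95, 24.6 and 28.3 in Pdgfra-cre. Its groups were apart, and the log2 fold change was -0.42 ± 0.15 (SE, limma adjusted p = 0.343). It shares 155 exon bases with Chchd10 on the opposite strand (3.38 to 7.07 FPKM), and the library protocol does not keep strand.

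Collagenase genes other than Mmp14 (Mmp13, Mmp8, Mmp1a and Mmp1b) were low. Mmp13, the main interstitial collagenase of rodents, was at 6.56, 7.18 and 1.37 FPKM in controls and 5.88, 0.753 and 0.857 in Pdgfra-cre. Both groups held high and low libraries, and its log2 fold change was -0.90 ± 0.60 (SE, limma adjusted p = 0.661). Control 43 was the lowest control for Mmp13, as it was for Mmp3, Mmp10 and Mmp2. Neutrophil collagenase Mmp8 was at 0 to 0.690 FPKM.

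Among the other MMPs, Mmp19 and Mmp23 were expressed. Mmp19 (chromosome 10, 128790910 to 128800824), a basement membrane protease, was at 33.4, 36.0 and 33.3 FPKM in controls and 44.6, 49.6 and 50.1 in Pdgfra-cre. All 3 Pdgfra-cre libraries exceeded every control, with a gap wider than the range within either group. The means were 34.2 ± 1.54 and 48.1 ± 3.02 FPKM (SD, n = 3 each), a log2 fold change of 0.48 ± 0.12 (SE, limma unadjusted p = 0.00296, adjusted p = 0.198). Mmp19 shares 789 exon bases with Tmem198b on the opposite strand, whose FPKM was 22.4, 29.9 and 23.2 in controls and 30.7, 30.4 and 30.9 in Pdgfra-cre. Its part in the Mmp19 values was not tested. Mmp23, a membrane-anchored MMP released by cleavage, was at 110, 152 and 108 FPKM in controls and 132, 139 and 148 in Pdgfra-cre, all within the control range.

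MMPs known from other cells were near 0. Gelatinase Mmp9, abundant in neutrophils, was at 0 to 0.557 FPKM, and leukocyte membrane-type Mmp25 at 0 to 0.299. Macrophage elastase Mmp12 was at 0.104 to 0.557 FPKM, and matrilysin Mmp7, an epithelial enzyme, was listed at 0. Mmp8 and Mmp9 were each highest in Pdgfra-cre 23 (0.690 and 0.557 FPKM), which also held the most S100a8, a neutrophil transcript (94.7 FPKM, against 0 to 9.42 elsewhere). Mmp27 had 1.58, 1.22 and 0.509 FPKM in controls and 0.0725, 0.0712 and 0.833 in Pdgfra-cre, and was not tested.

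Among ADAMTS genes, Adamts1 was the most abundant and the steadiest of the members with a mean of at least 10 FPKM. Adamts1 (chromosome 16, 85793827 to 85803113), a secreted protease that cleaves versican, was at 238, 207 and 238 FPKM in controls and 243, 217 and 252 in Pdgfra-cre. The highest library exceeded the lowest by a factor of 1.22. The groups overlapped through Pdgfra-cre 23, while Pdgfra-cre 13 and 25 lay just above every control (limma adjusted p = 0.903). The log2 fold change of Adamts1 was 0.058, and -0.039 after rescaling to TPM. Adamts1, Adamts2 and Adamts4 together made up 83.1% to 86.3% of the summed ADAMTS FPKM.

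Of the 7 proteoglycan-cleaving genes, which include the aggrecanases, 6 were tested, with 2 above 0, 4 below and a median log2 fold change of -0.29. Adamts1, among those above 0, was below it after rescaling to TPM. Adamts4 (aggrecanase 1) was at 97.0, 96.8 and 84.3 FPKM in controls and 77.1, 64.3 and 91.3 in Pdgfra-cre, where library 25 overlapped the controls. Its log2 fold change was -0.26 ± 0.15 (SE, limma adjusted p = 0.566), and -0.14 without Pdgfra-cre 23.

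Adamts5 (aggrecanase 2, chromosome 16, 85856173 to 85901828) was at 11.2, 9.60 and 6.72 FPKM in controls and 11.8, 16.8 and 12.7 in Pdgfra-cre. Every control lay below these, though control 8 and Pdgfra-cre 13 were nearly equal. Its log2 fold change was 0.55 ± 0.22 (SE, limma adjusted p = 0.391), with a value of 0.36 without control 43. The aggrecanases therefore had estimates of opposite sign, and neither passed. Adamts15 was at 2.75 to 16.2 FPKM and Adamts8, an anti-angiogenic protease, at 0.553 to 5.90, and both were highest in control 9.

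The procollagen N-proteinases, which remove the amino-terminal propeptide of fibrillar collagens, were led by Adamts2. It was at 77.1, 86.5 and 75.7 FPKM in controls and 69.1, 53.8 and 92.9 in Pdgfra-cre. Pdgfra-cre held both the highest and the lowest library, and the log2 fold change was -0.18 ± 0.18 (SE, limma adjusted p = 0.801), or 0.0090 without Pdgfra-cre 23. Adamts14 (1.66 to 4.62 FPKM) and Adamts3 (2.19 to 3.80) were far lower.

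Adamts10, which is linked to fibrillin microfibrils, was at 25.2, 21.2 and 33.1 FPKM in controls and 20.5, 22.1 and 31.9 in Pdgfra-cre. The ranges nearly coincided, and 1 library in each group (control 43 and Pdgfra-cre 25) stood above the other 4. Adamts7, a protease of cartilage oligomeric matrix protein, was at 2.93, 3.13 and 2.42 FPKM in controls and 1.11, 0.724 and 1.88 in Pdgfra-cre. Its groups did not overlap, and the log2 fold change was -0.80 ± 0.27 (SE, limma adjusted p = 0.294). On the larger pseudocount of 5 that value was -0.33, since the gene is low. It shares 122 exon bases with Tbc1d2b on the opposite strand (18.9 to 21.6 FPKM). Adamts12, the other protease of that class, was at 0.938 to 2.12 FPKM.

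The ADAMTS-like genes, matrix proteins without protease activity, were all expressed, and 4 of 5 had a log2 fold change above 0 (median 0.32). Adamtsl3 was at 13.7, 9.80 and 9.13 FPKM in controls and 15.7, 13.8 and 15.8 in Pdgfra-cre. Adamtsl1 was at 5.91, 5.98 and 7.16 FPKM in controls and 11.2, 9.68 and 7.77 in Pdgfra-cre. Neither overlapped between groups, by narrow margins, with log2 fold changes of 0.46 ± 0.19 and 0.51 ± 0.20 (SE, limma adjusted p = 0.395 and 0.369). After rescaling to TPM these were 0.38 and 0.45. The groups then overlapped for Adamtsl3, since summed FPKM over all genes was 586043 in Pdgfra-cre 23 and 508697 in control 8.

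Adamtsl4, a fibrillin-binding member, was at 32.0, 32.0 and 52.4 FPKM in controls and 39.99, 45.7 and 44.3 in Pdgfra-cre. Its Pdgfra-cre values all lay inside the control range, which control 43 widened. Adamtsl5 was at 13.4, 13.1 and 18.6 FPKM in controls and 16.4, 18.6 and 21.7 in Pdgfra-cre, with overlap. Adamtsl2, which limits TGF-beta availability, was the exception in direction, at 13.6, 14.98 and 24.8 FPKM in controls and 19.3, 5.86 and 12.9 in Pdgfra-cre, with a log2 fold change of -0.54 ± 0.37 (SE, limma adjusted p = 0.667). That estimate rested largely on single libraries, at -0.11 without Pdgfra-cre 23, -0.29 without control 43 and -0.90 without Pdgfra-cre 13. Control 43 was the highest library for Adamtsl2, as for Adamtsl4 and Adamts10.

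TIMP transcripts were abundant, at 1055 to 1381 FPKM in sum. Timp2 (chromosome 11, 118301069 to 118355740) led them in every library, at 686, 581 and 768 FPKM in controls and 719, 683 and 909 in Pdgfra-cre. The groups overlapped, and its log2 fold change was 0.18 ± 0.15 (SE, limma adjusted p = 0.731). It was 0.057 without Pdgfra-cre 25, 0.076 without control 9 and 0.28 without control 43. Timp4 was at 0.604 FPKM in control 8 and listed at 0 in the other 5 libraries.

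Timp1 (chromosome X, 20870166 to 20874735), the TIMP most induced by inflammatory cytokines, had the widest spread of the abundant genes, with a highest library 4.62 times the lowest. It was at 159, 196 and 74.3 FPKM in controls and 343, 326 and 177 in Pdgfra-cre. Pdgfra-cre 13 and 23 exceeded every control, and Pdgfra-cre 25 lay between controls 8 and 9. The means were 143 ± 62.2 and 282 ± 91.2 FPKM (SD, n = 3 each), a log2 fold change of 1.03 ± 0.35 (SE, limma unadjusted p = 0.0170, adjusted p = 0.312). Without control 43, the lowest library, the log2 fold change was 0.62 (limma adjusted p = 0.605).

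Timp3 (chromosome 10, 86300372 to 86349506) was at 356, 278 and 371 FPKM in controls and 319, 274 and 267 in Pdgfra-cre. Control 9 lay inside the Pdgfra-cre range, and the log2 fold change was -0.22 ± 0.14 (SE, limma adjusted p = 0.629), running from -0.35 without control 9 to -0.14 without control 43. Timp1, Timp3 and Timp4 each lie inside a synapsin gene on the opposite strand (Syn1, Syn3 and Syn2). Those hosts were at 0.107 to 0.673, 0.0491 to 0.259 and 1.09 to 4.29 FPKM. Beside Timp1 and Timp3 these levels are small, while for Timp4 the host exceeded the nested gene.

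**Figure D3:**
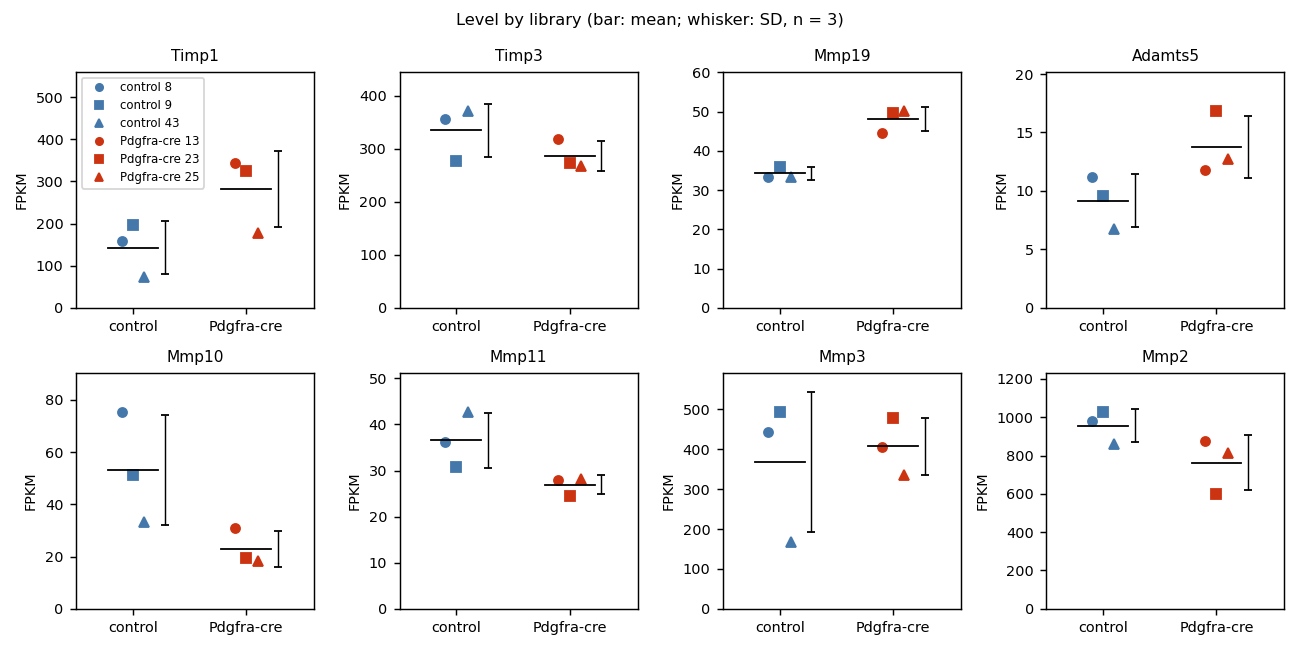
FPKM of 8 genes (y axes, from 0) in each library, blue for control and red for Pdgfra-cre, with the mean as a bar and the SD as a whisker (n = 3 each). Mmp19 and Adamts5 lie higher and Mmp10 and Mmp11 lower in Pdgfra-cre without overlap, while Timp1, Timp3, Mmp3 and Mmp2 overlap.

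The makeup of the TIMP pool varied between libraries. Timp3 made up 29.7%, 26.4% and 30.6% of the summed TIMP FPKM in controls and 23.1%, 21.3% and 19.7% in Pdgfra-cre, without overlap. Timp1 made up 13.2%, 18.5% and 6.12% in controls and 24.8%, 25.4% and 13.1% in Pdgfra-cre. In Pdgfra-cre 25 the smaller Timp3 share went with a Timp2 share of 67.2%, the highest of all 6, and in 13 and 23 with more Timp1.

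The protease to inhibitor balance was taken as summed MMP FPKM over summed TIMP FPKM within each library, with no test. The ratio was 1.73, 2.06 and 1.31 in controls and 1.34, 1.25 and 1.28 in Pdgfra-cre. Controls 8 and 9 stood above the rest, and control 43 lay among the Pdgfra-cre libraries, which were close together. On the log2 scale the means were 0.74 ± 0.33 and 0.37 ± 0.051 (SD, n = 3 each). The difference was -0.37, running from -0.55 without control 43 to -0.22 without control 9. Both sums contributed to the difference in means. Summed MMP FPKM averaged 1943 ± 314 in the control group and 1727 ± 123 in the cre group (SD, n = 3 each). The groups overlapped in that sum, and control 43 was the lowest library (1585 FPKM). Summed TIMP FPKM averaged 1156 ± 88.2 and 1339 ± 50.6 (SD, n = 3 each). It did not overlap, at 1055 to 1213 FPKM in controls and 1283 to 1381 in Pdgfra-cre. Unlike the ratio, that separation depends on the scaling of libraries. As a share of the summed FPKM of all genes, the groups overlapped. Pdgfra-cre 23 had 1283 of 586043 FPKM, a smaller share than the 1201 of 508697 in control 8.

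Within the unit that activates MMP2, the Mmp14 to Timp2 ratio was 0.553, 0.627 and 0.431 in controls and 0.435, 0.408 and 0.357 in Pdgfra-cre, overlapping at control 43. Summed ADAMTS FPKM was steady in controls (470 to 478) and wider in Pdgfra-cre (396 to 517). Divided by Timp3, it was 1.34, 1.69 and 1.27 in controls and 1.42, 1.45 and 1.94 in Pdgfra-cre, with overlap. A balance computed from transcripts says nothing of the amounts of active enzyme.

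**Figure D4:**
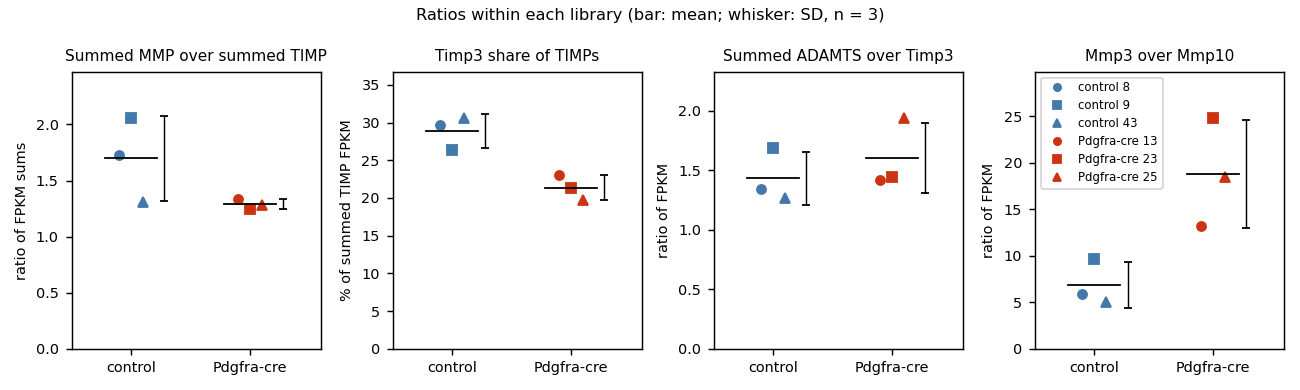
Ratios of FPKM within each library (y axes, from 0), blue for control and red for Pdgfra-cre, with the mean as a bar and the SD as a whisker (n = 3 each). The summed MMP to TIMP ratio overlaps through control 43 (1.31), while the Timp3 share and the Mmp3 to Mmp10 ratio separate the groups.

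Over all genotype comparisons, 0 of the 33 tested members passed limma at an adjusted p of 0.05. The same held for all 11429 genes tested (0% called). At an unadjusted p under 0.05 there were 8 members (24.2%), against 11% of all genes tested. Those with higher values in Pdgfra-cre numbered 5 (Timp1, Mmp19, Adamts5, Adamtsl1 and Adamtsl3), against a background of 5.47%. Those with lower values numbered 3 (Mmp10, Mmp11 and Adamts7), against 5.49%. The groups did not overlap in 8 members, 4 in each direction, against 16.4% of all genes tested (8.07% higher and 8.29% lower). The median log2 fold change was -0.092 over the tested members and 0.0012 over all genes tested, and 15 members were above 0 and 18 below (11 and 22 after rescaling to TPM). Members at an unadjusted p under 0.05 numbered 5 without Pdgfra-cre 23. Rescaling to TPM changed the split to 2 higher and 5 lower, against 3.67% and 7.65% of all genes. Mmp2 and Mmp14 joined the lower side, and Adamts5, Adamtsl1 and Adamtsl3 left the higher side.

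**Figure D5:**
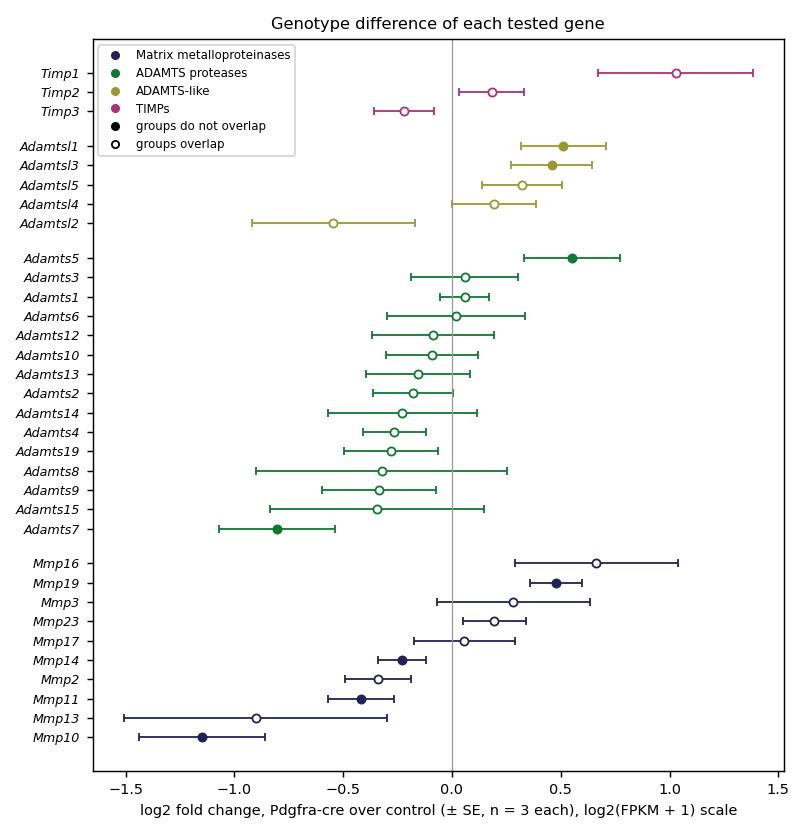
Log2 fold change of the 33 tested genes, Pdgfra-cre over control (x axis, log2(FPKM + 1) scale, whiskers are SE, n = 3 each), by family. Filled points mark genes whose groups do not overlap, 4 on each side of 0, and Mmp10 and Timp1 lie at the ends.

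Genes that act with these proteases were taken from lists of the same pathways, and 0 of their tested members passed limma at an adjusted p of 0.05. The counts at an unadjusted p under 0.05 stand beside 5.47% higher and 5.49% lower of all genes tested, and the lists are short. In the plasminogen system, which generates the MMP-activating protease plasmin, 9 of 11 genes were tested. At an unadjusted p under 0.05, 3 were higher in Pdgfra-cre (33.3%, against 5.47% of all genes tested) and 0 lower. S100a10, a plasminogen receptor subunit, averaged 418 ± 78.6 FPKM in the control group and 643 ± 40.8 in the cre group, and its partner Anxa2 1159 ± 70.2 and 1539 ± 241 (SD, n = 3 each). Plaur, the urokinase receptor gene, averaged 46.3 ± 10.55 and 65.3 ± 13.2 FPKM (SD, n = 3 each). The limma adjusted p was 0.169 for S100a10, 0.300 for Anxa2 and 0.395 for Plaur. The activator Plat was abundant (226 to 480 FPKM), Plau was at 0.193 to 1.41, and plasminogen itself (Plg) was listed at 0.

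Of the proteins that activate or clear MMPs, 12 of 13 genes were tested, and Furin, a proprotein convertase, was the member at an unadjusted p under 0.05 (8.33%, against 11% of all genes tested). It averaged 2.42 ± 0.499 FPKM in the control group and 4.77 ± 1.61 in the cre group (SD, n = 3 each, limma adjusted p = 0.344). The MMP inhibitor Reck was at 23.8 to 33.2 FPKM and the inducer Bsg, the most abundant of the list, at 271 to 308, both with overlap. Among tolloid and procollagen C-proteinase genes 3 of 5 were tested. Bmp1, which removes the carboxy-terminal propeptide, averaged 83.9 ± 13.01 and 120 ± 0.645 FPKM (SD, n = 3 each, limma adjusted p = 0.202), and its enhancer Pcolce was the most abundant, at 668 to 869 FPKM.

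Of the ADAM list 8 of 9 genes were tested, with 1 at an unadjusted p under 0.05 in each direction (25% in all, against 11% of all genes tested). Adam15 averaged 42.2 ± 0.956 FPKM in the control group and 54.7 ± 7.61 in the cre group (SD, n = 3 each, limma adjusted p = 0.358). Adamdec1, a metalloprotease of intestinal stroma and macrophages, was at 1518, 1352 and 3274 FPKM in controls and 982, 1201 and 1165 in Pdgfra-cre (limma adjusted p = 0.357). Control 43 was far above the other 5 for Adamdec1, in contrast to its low Mmp3 and Timp1. Among cysteine cathepsins and cystatins 5 of 7 were tested, and the collagenolytic Ctsk averaged 248 ± 40.3 and 185 ± 8.52 FPKM (SD, n = 3 each, limma adjusted p = 0.280). The most abundant was the inhibitor Cst3, at 806 to 992 FPKM.

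All 8 AP-1 genes were tested, with 4 above 0, 4 below, and 2 at an unadjusted p under 0.05, both higher (25%, against 5.47% of all genes tested). Atf3 averaged 683 ± 28.7 FPKM in the control group and 985 ± 54.5 in the cre group, and Fosl1 5.50 ± 1.05 and 10.1 ± 2.42 (SD, n = 3 each, limma adjusted p = 0.156 and 0.254). Fos was the most abundant, at 3286 ± 274 and 3136 ± 203 FPKM (SD, n = 3 each). Of 14 cytokine and receptor genes known to control MMP expression 11 were tested, with 1 at an unadjusted p under 0.05 in each direction (18.2% in all, against 11% of all genes tested). The interleukin-1 receptor subunit gene Il1rap averaged 25.2 ± 5.54 and 14.1 ± 0.134 FPKM, and Tgfbr2 192 ± 13.6 and 243 ± 25.3 (SD, n = 3 each, limma adjusted p = 0.169 and 0.326). The most abundant of that list was Il6, at 225 to 432 FPKM.

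Of 11 ADAMTS substrate genes 5 were tested, all above 0 and all with overlap between the groups. Over all genes tested, 5752 were above 0 and 5677 below. The log2 fold changes of Col3a1 (0.087) and Vcan (0.077) were smaller in size than the median shift on rescaling to TPM (-0.091). Fbn1, encoding fibrillin 1, averaged 118 ± 14.7 and 151 ± 17.7 FPKM (SD, n = 3 each, limma adjusted p = 0.373), and Col3a1 was the most abundant, at 3224 to 5391 FPKM. Of the large aggregating proteoglycans the cells expressed versican (Vcan, 27.7 to 36.9 FPKM), while Ncan was listed at 0 throughout.

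Markers of other cell types were summed in each library, and 0 of them passed limma at an adjusted p of 0.05. The sums did not overlap between the groups for smooth muscle, mesothelial, pericyte and, barely, neutrophil markers, and overlapped for the other types. All 7 smooth muscle markers were lower at an unadjusted p under 0.05, against 5.49% of all genes tested, with a lowest limma adjusted p of 0.169. Their summed FPKM was 775 to 802 in controls and 183 to 461 in Pdgfra-cre. Mesothelial markers summed to 17.6 to 25.1 and 41.9 to 100.1 FPKM. Msln among them reached 1 FPKM only in the Pdgfra-cre libraries (0, 0.804 and 0.166 FPKM in controls, 8.81, 28.1 and 4.22 in Pdgfra-cre), so it was tested only through the group where it was high. Of the other 5 tested, 4 were higher at an unadjusted p under 0.05, against 5.47% of all genes tested, and one of them, Krt19, is also in the epithelial list. Pericyte markers summed to 38.4 to 55.6 and 30.0 to 36.0 FPKM, most of it Kcnj8 (15.8 to 37.8 FPKM). Of 4 tested, only Kcnj8 was lower at an unadjusted p under 0.05 (25%, against 5.49% of all genes tested). Abcc9, Cspg4 and Rgs5 overlapped between the groups, and Rgs5 had a log2 fold change above 0 (0.078). The 14 neutrophil markers summed to 2.04 to 16.71 and 16.72 to 199.8 FPKM, highest in Pdgfra-cre 23, with 4 of 14 tested and Ltf listed at 0.

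Epithelial markers summed to 0.869 to 17.6 and 8.58 to 42.0 FPKM (Tff3 at 0), and macrophage markers to 22.6 to 33.0 and 18.3 to 43.1. Endothelial markers summed to 29.0 to 36.1 and 33.3 to 43.8 FPKM, nearly all of it Tek (27.1 to 41.5 FPKM). The other 7 endothelial markers were each at 0 to 0.856 FPKM, with Cdh5 at 0 throughout and Pecam1 the highest. Glial markers summed to 5.63 to 14.9 and 5.24 to 8.78 FPKM, and lymphocyte markers to 0.847 to 1.176 and 0.735 to 1.49 (Cd79b at 0). Pdgfra-cre 23 had the lowest smooth muscle sum and the highest mesothelial, neutrophil, epithelial and macrophage sums of all 6 libraries. Most of its macrophage sum was Lyz2 (28.8 FPKM). Among the other macrophage markers, Csf1r was lowest there (0.0564 FPKM) and C1qa highest (1.88 FPKM). Most of its epithelial sum was Krt8, Krt18 and Krt19 (11.5, 12.1 and 15.4 FPKM). The part of these cells in the member differences was not tested. Fibroblast markers summed to 16619 to 19970 and 19957 to 20525 FPKM.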

How the data were processed

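RNA from sorted stromal cells of 6 mice, 3 per genotype, was sequenced after full-length cDNA amplification and tagmentation, which do not keep strand. The authors deposited 1 table per library of gene-level FPKM. Per the submitters' processing notes, the tools were TopHat2 2.1.1, Bowtie2 2.2.8, SAMtools 0.1.18 and Cuffdiff 2.2.1, with the mm10 build. The annotation, the options and the sequencing depth are not given in the sources used here. Reads of overlapping or closely related genes may therefore be divided or shared.

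Groups follow the sample titles and genotype labels. Values were analysed as log2(FPKM + 1) in R 4.3.3 with limma 3.58.1, using a moderated statistic with a variance trend on the 11429 genes that reached 1 FPKM in 3 or more libraries. All p-values for genes are from limma, with Benjamini-Hochberg adjustment over all genes tested and a threshold of 0.05. Fold changes on this scale understate changes of low genes. The fit was tested on simulated data. Members, lists and tests were chosen with earlier results of these data known. Values in each library were given for the TIMPs, members with a mean FPKM of at least 10 and members with an unadjusted p under 0.05. A few other low members (Mmp13 and Mmp27 among them), Adamdec1, Tmem198b and the markers Msln, Krt8, Krt18, Krt19, Lyz2, Csf1r, C1qa and Tek were added after their values were seen. From the pathway lists, genes with an unadjusted p under 0.05 and the most abundant gene were named. Alternatives were pseudocounts of 0.1 and 5, no filter or one of 5 FPKM, scaling by median of ratios, rescaling to TPM and leaving out each library. Positions are from GENCODE M21, in which all 51 members were placed.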

Additional observations from a re-analysis of the deposited data

How the results depend on the processing

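In all 12 alternatives 0 members passed an adjusted p of 0.05. The count over all genes was 0 to 31 when 1 library was left out (2 without control 43, 3 without Pdgfra-cre 13 and 31 without Pdgfra-cre 25) and 0 otherwise. Members at an unadjusted p under 0.05 numbered 5 to 9 when 1 library was left out and 7 or 8 otherwise. Mmp10 and Mmp19 were among them in all 12. Of these alternatives, scaling by median of ratios nearly repeated the main fit. It moved the median log2 fold change of the genes tested by only 8.7e-05. Some estimates changed sign. Adamts1 was -0.039 after rescaling to TPM. With 1 library left out, Adamts1 ran from -0.0090 (without control 9) to 0.12, Adamts10 from -0.28 to 0.074 (without control 43, and 0.026 without Pdgfra-cre 13), Adamts2 from -0.38 to 0.0090 (without Pdgfra-cre 23) and Mmp3 from -0.21 (without control 43) to 0.57. The log2 difference in the MMP to TIMP ratio stayed below 0 in all 9 alternatives. That of ADAMTS to Timp3, 0.16, was -0.28 against all TIMPs and 0.0087 to 0.28 with 1 library left out. No paired analysis was possible because the groups share no replicate numbers. Depth was not given, so values under about 1 FPKM rest on few reads, and with 3 libraries per group nothing shows that undetected differences are absent.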

Other observations

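Control 43 stood apart from controls 8 and 9 across several of these genes, in both directions. It was the lowest of all 6 libraries for Mmp3 (167 FPKM), Timp1 (74.3), Mmp16 (1.02) and Adamts5 (6.72), and the highest for Adamdec1 (3274), Mmp11 (42.7), Adamtsl2 (24.8), Adamtsl4 (52.4) and Adamts10 (33.1). Its mean correlation with the other libraries was 0.960, the second lowest after Pdgfra-cre 23. Its Timp1 share of the TIMP sum was 6.12%, against 13.1% to 25.4% in the other 5. The selection followed a look at the values, and no test was made.

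Pdgfra-cre 23 had the highest summed neutrophil (199.8 FPKM), mesothelial (100.1), epithelial (42.0) and macrophage (43.1) markers and the lowest summed smooth muscle markers (183 FPKM). Most of that epithelial sum was Krt8, Krt18 and Krt19, and most of that macrophage sum was Lyz2. Pdgfra-cre 23 also had the lowest Mmp2 (601 FPKM), Mmp14 (279), Adamts4 (64.3), Adamts2 (53.8), Adamtsl2 (5.86) and Adamts15 (2.75) of all 6. Its Adamts5 (16.8 FPKM) was the highest, and its Mmp3 (480 FPKM) and Timp1 (326) were both the second highest. The part of these markers in the member values was not tested. Its summed FPKM over all genes was 586043, against 493314 to 532522 in the others, which is the difference that rescaling to TPM removes.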
